A study of Mus musculus with 12 samples.

Results

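The genes described here mark the cells of blood and lymph vessels and the pericytes that wrap capillaries. They were the rows of the deposited count table whose symbol stood on a list of 39 genes. Of these, 38 had a row among the 61210 genes of the table, and Cldn5 was not analysed here. In the tests 37 entered, since Esm1, with 0 to 12 counts per library, lay below the filter on low counts. The list was divided into 19 pan-endothelial genes, 8 arterial and Notch genes, 2 venous genes, 4 tip-cell genes, 3 lymphatic genes and 3 pericyte genes. Total RNA of brown adipose tissue (iBAT) was sequenced from wild type C57BL/6N mice at 20 weeks of age. The paper gives this depot as interscapular, while the series text calls it inguinal. There were 4 groups of 3 libraries. Mice of the first group stayed on a normal chow diet (NCD) at 22 °C, mice of the second were on NCD and spent 24 h at 4 °C, mice of the third received a high-fat diet (HFD) for 12 weeks from 8 weeks of age at 22 °C, and mice of the fourth had the same HFD and 24 h at 4 °C. The 4 °C groups are also called cold here. The labels tie no library to a litter, and the p-values measure the spread between these libraries. Whole tissue was used, so that for a gene of 1 cell type fewer cells of that type and less RNA per cell cannot be told apart.

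Brown fat is densely supplied with capillaries, which bring fatty acids, glucose and oxygen to the adipocytes and carry heat away. Endothelial cells are held in their identity by ETS factors such as ERG and by the SOX factors SOX7, SOX17 and SOX18. Growth is driven by VEGF-A through the receptor KDR, while DLL4 on a leading tip cell activates Notch receptors on its neighbours, which then express targets such as HEY1. Pericytes are recruited by PDGF-B through PDGFRB, and angiopoietin 1 (ANGPT1), released by cells around the endothelium, stabilises vessels through the receptor TEK.

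The libraries held 15136861 to 46740702 counts. Those of replicates 1 and 2 held 15136861 to 21026727 and those of replicate 3 held 34067515 to 46740702. Values are given as CPM, the count of a gene scaled to the depth of its library, with TMM factors that rest on the genes differing least between libraries. Contrasts were called at an adjusted p under 0.05 with an absolute log2 fold change over 0.5. Wherever an adjusted p is printed it comes from the quasi-likelihood test of edgeR, adjusted by Benjamini and Hochberg's method over 16737 genes. The 5 brown adipocyte markers summed to 7049 to 22665 CPM per library. The 8 skeletal muscle markers summed to between 504 and 15199 CPM and were highest in replicate 2 of both NCD groups and replicate 3 of both HFD groups. All 8 had lower fitted levels at 4 °C on both diets, none of them called. The 5 fibroblast markers summed to 1037 to 1617 CPM in NCD at 22 °C and to 474 to 557 CPM in NCD at 4 °C. Their part in the results below was not tested beyond a fit with the muscle score as a term, in which 13 of the 17 calls made for single members in the 4 contrasts remained. The number of all genes called in that fit went from 1049 to 1143 for cold on NCD and from 1603 to 1684 for cold on HFD. For HFD it went from 349 to 520 at 22 °C and from 795 to 1168 in the cold. Replicates 1 and 2 formed 1 batch and replicate 3 another, which held 1 library per group and could not be tested alone. Within replicates 1 and 2 alone, 6 of the 17 calls remained and 0 reversed. The number of all genes called there went from 1049 to 352 for cold on NCD and from 1603 to 416 for cold on HFD. It went from 349 to 42 for HFD at 22 °C and from 795 to 53 for HFD in the cold.

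The upstream stretches of 4 of the genes that follow are shown because these genes changed with cold or diet and had an entry in the RefSeq promoter table of build GRCm38.p6. That table held 22 of the 38 genes with a row. Each line gives the 250 bases before the transcript start, from 5′ to 3′ on the strand of the gene. Capitals mark GGAA and its reverse complement TTCC, the core that ETS factors bind.
Eng, chr2:32646345-32646594, plus strand: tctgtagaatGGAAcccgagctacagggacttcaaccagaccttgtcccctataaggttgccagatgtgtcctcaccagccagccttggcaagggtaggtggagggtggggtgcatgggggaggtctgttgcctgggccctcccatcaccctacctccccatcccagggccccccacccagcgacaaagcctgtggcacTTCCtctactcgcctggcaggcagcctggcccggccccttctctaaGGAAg
Ephb4, chr5:137349859-137350108, plus strand: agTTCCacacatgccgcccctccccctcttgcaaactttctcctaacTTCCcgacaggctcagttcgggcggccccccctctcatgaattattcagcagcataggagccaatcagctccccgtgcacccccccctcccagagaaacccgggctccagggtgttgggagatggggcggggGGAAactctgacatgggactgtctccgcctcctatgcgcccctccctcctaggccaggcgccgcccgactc
Dll4, chr2:119325534-119325783, plus strand: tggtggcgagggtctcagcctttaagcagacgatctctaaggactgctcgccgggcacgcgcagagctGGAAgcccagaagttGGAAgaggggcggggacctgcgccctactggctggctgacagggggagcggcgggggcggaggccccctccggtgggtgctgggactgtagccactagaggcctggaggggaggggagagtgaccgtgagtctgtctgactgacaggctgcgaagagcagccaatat
Rgs5, chr1:169655251-169655500, plus strand: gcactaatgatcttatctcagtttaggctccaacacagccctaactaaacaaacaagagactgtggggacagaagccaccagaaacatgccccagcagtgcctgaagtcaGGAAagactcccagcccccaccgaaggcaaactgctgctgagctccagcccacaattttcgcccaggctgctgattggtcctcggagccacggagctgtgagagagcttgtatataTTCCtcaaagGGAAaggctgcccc
The core occurred 3 times upstream of Eng, 3 times upstream of Ephb4, 2 times upstream of Dll4 and 3 times upstream of Rgs5. The median over all 32851 promoters of the table was 3, and 93.4% of them held at least 1. The RBPJ site TGGGAA, through which Notch acts and which contains the ETS core, was searched on both strands and stood in none of these 4 windows, against 21.6% of all promoters. The SOX motif ACAAT was found 1 time upstream of Rgs5, against 27.7% of all promoters. A match is only a run of letters, and its absence says only that these letters are not in the window.

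Across the 4 groups, the summed level of the pan-endothelial genes was lowest on NCD at 22 °C and highest on HFD at 4 °C. The summed level of the 3 pericyte genes, most of which is Rgs5, was lower at 4 °C than at 22 °C within each diet. The 18 pan-endothelial genes with a row summed to 1010 to 1156 CPM in NCD at 22 °C, 1337 to 1536 CPM in NCD at 4 °C, 1321 to 1667 CPM in HFD at 22 °C and 1731 to 1961 CPM in HFD at 4 °C. The first and the last group thus lay apart from the others, and those between overlapped. The 8 arterial and Notch genes summed to 122 to 155 CPM in NCD at 22 °C, and to 158 to 200 CPM, 196 to 217 CPM and 216 to 261 CPM in NCD at 4 °C, HFD at 22 °C and HFD at 4 °C. The 3 pericyte genes summed to 513 to 556 CPM, 396 to 511 CPM, 650 to 744 CPM and 444 to 580 CPM in the same order. The 10 other pericyte and smooth muscle genes tested were not lower as a list, with median log2 changes with cold of 0.14 on NCD, where 7 of 10 were positive, and of 0.00 on HFD, where 5 of 10 were. In the test over the 4 groups, 3 of the 37 genes passed an adjusted p of 0.001, where 2.55% of all genes did. These were Eng (adjusted p = 0.000559), Pecam1 (adjusted p = 0.000753) and Hey1 (adjusted p = 0.000927). At an adjusted p of 0.05 there were 18 of 37, against 24.3% of all genes. The strict count was 0 to 2 when any 1 library was left out and 0 with the replicate number as a block or with the muscle score as a term, and DESeq2 gave 13, where it called 15.7% of all genes.

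**Figure D1:**
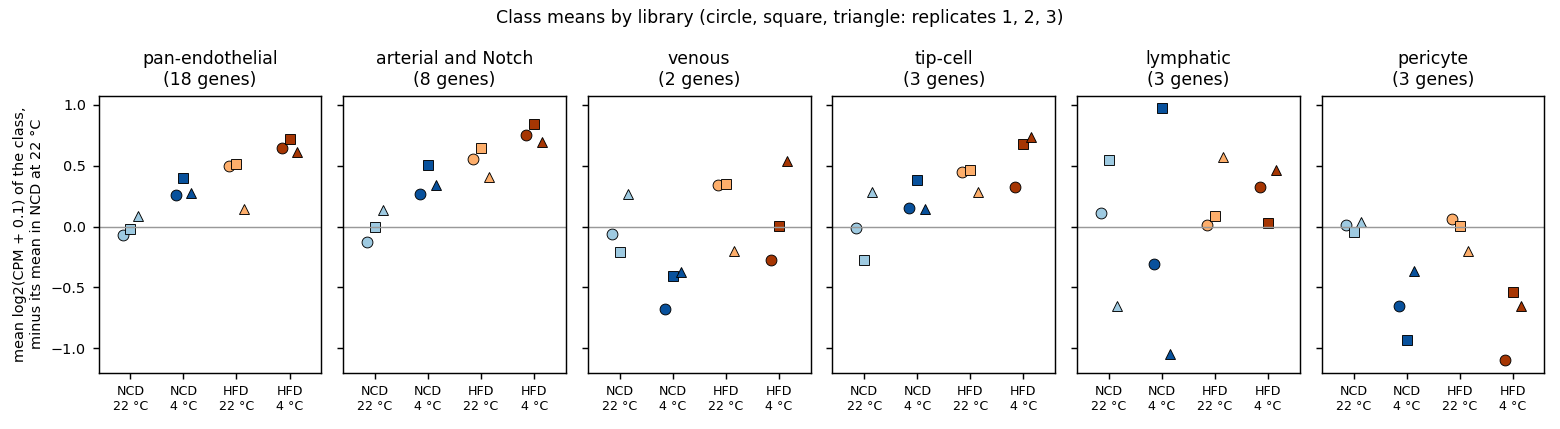
Mean log2(CPM + 0.1) over the genes of each class in every library, minus the mean of that class in the 3 libraries of NCD at 22 °C. Each point is 1 library, with the shape giving the replicate. Pan-endothelial libraries sit between 0.61 and 0.72 on HFD at 4 °C, and pericyte libraries at 4 °C between −1.10 and −0.37. Of the 3 pericyte genes, Angpt1 has the largest change with cold (log2 −1.50 and −1.54), while Pdgfrb has −0.21 and −0.01.

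With cold on NCD, 5 of the 37 genes rose and 1 fell, and with cold on HFD 6 rose and 3 fell. The genes called on both diets were Eng, Hey1, Sox17 and Sox18, which rose, and Angpt1, which fell. Over all genes, 3.72% rose and 2.55% fell with cold on NCD, and 5.39% rose and 4.19% fell on HFD. The 31 blood endothelial genes had a median log2 change of 0.25 on NCD and 0.19 on HFD, beside −0.01 and −0.04 for all genes. Of these 31, 25 had a positive change on NCD and 23 on HFD. The HFD values rested in part on replicate 3 of HFD at 22 °C, without which the median was 0.10 and 18 of 31 were positive, and in replicates 1 and 2 alone they were 0.12 and 19 of 31. Libraries at 4 °C lay above all those at 22 °C for 13 of the 31 on NCD and for 11 on HFD, where 15.2% and 15.9% of all genes did so. They lay below for 2 of the 31 on NCD and for 1 on HFD, where 12.6% and 14.4% of all genes did. Both cold contrasts share no library with each other.

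**Figure D2:**
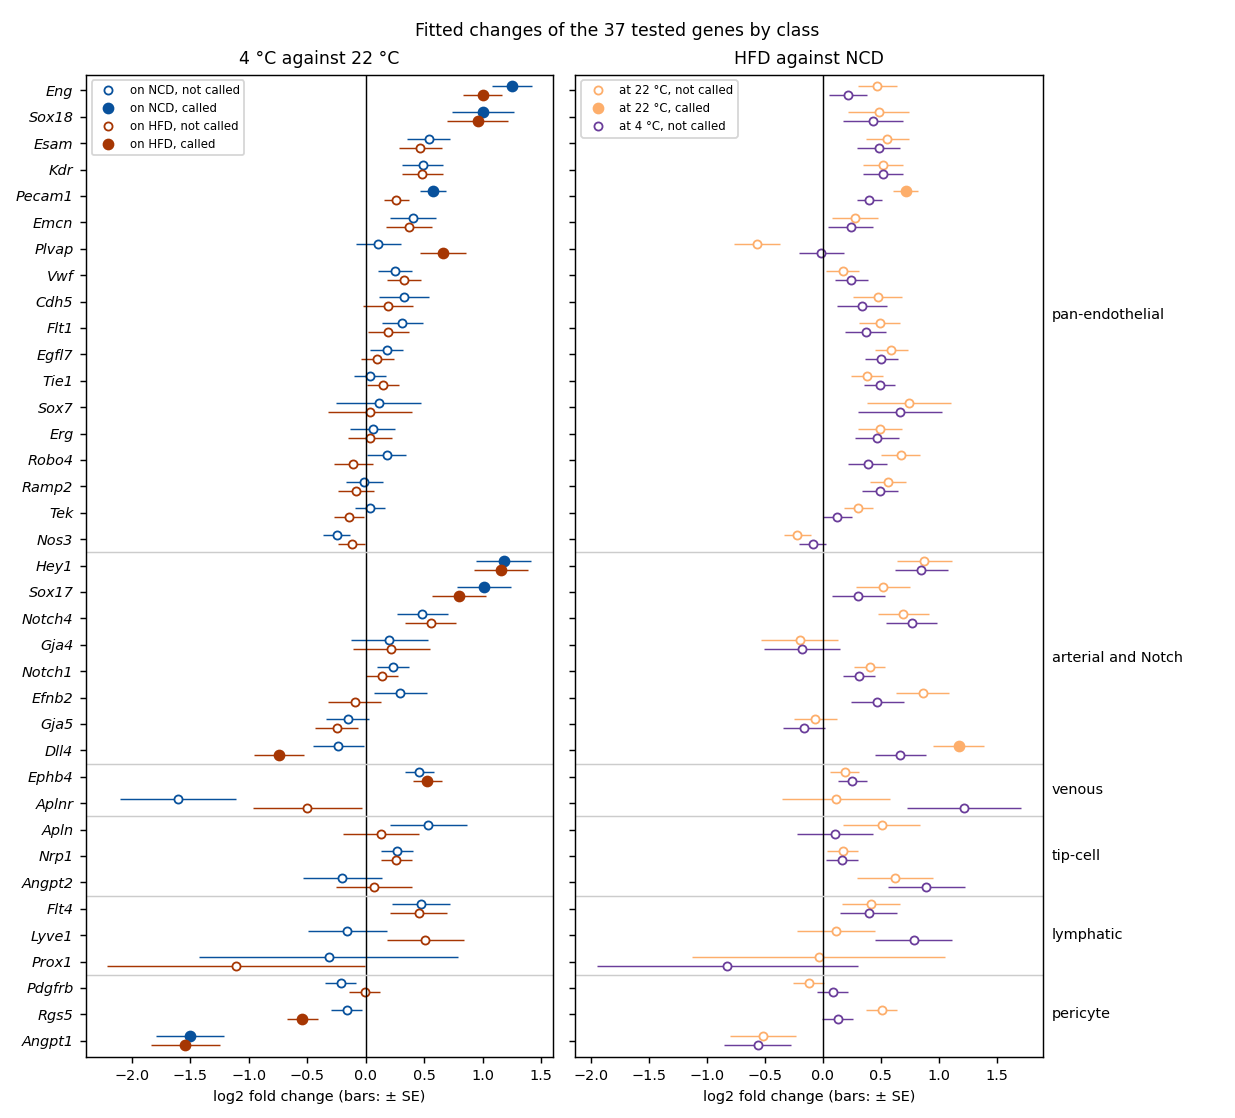
Fitted log2 fold changes with their SE for the 37 tested genes, grouped by class, for cold on each diet (left) and HFD at each temperature (right). Filled points are called. Angpt1 lies furthest to the left of the called genes, at −1.50 and −1.54 with cold, and most pan-endothelial genes lie right of 0 with HFD.

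Eng encodes endoglin, a co-receptor for BMP9 and TGF-β on endothelium (chromosome 2, 32646595 to 32682669). It was measured at 55.0, 57.4 and 54.6 CPM in NCD at 22 °C and at 135, 142 and 121 CPM in NCD at 4 °C. On HFD it stood at 99.1, 76.3 and 56.1 CPM at 22 °C and at 146, 147 and 170 CPM at 4 °C. The cold libraries lay above the warm ones on both diets without overlap. The rise was 2.38-fold on NCD (log2 1.25 ± 0.17 SE, adjusted p = 0.00202) and 2.00-fold on HFD (log2 1.00 ± 0.17 SE, adjusted p = 0.00453). Both calls held in each of the 12 fits that left out 1 library. Against the mean of the pan-endothelial genes, on the log2(CPM + 0.1) scale, Eng stood at 0.49 ± 0.10 (SD, n = 3) in NCD at 22 °C and at 1.43 ± 0.09 (SD, n = 3) in NCD at 4 °C. An exon of Eng overlaps Fpgs on the other strand, and Fpgs had a log2 change of −0.02 on NCD and of 0.30 on HFD, neither called. Fpgs had 81 to 304 counts per library. Whether counting used strand is not given in the sources used here, and without it reads from the stretch that both genes share could not be told apart. Within replicates 1 and 2 alone the log2 changes were 1.30 on NCD and 0.74 on HFD, both called.

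Pecam1, the junction protein CD31 (chromosome 11, 106654217 to 106750628), had 118, 108 and 115 CPM in NCD at 22 °C and 178, 170 and 161 CPM at 4 °C. It rose 1.49-fold with cold on NCD (log2 0.58 ± 0.11 SE, adjusted p = 0.0101). On HFD it went from 196, 206 and 158 CPM to 230, 228 and 213 CPM, which did not overlap, with a log2 change of 0.26 ± 0.11 SE that was not called (adjusted p = 0.141). The difference between the diets was −0.31 with an unadjusted p of 0.0615, and an adjusted p of 0.783.

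Sox18, which encodes a factor of endothelial and lymphatic identity, had 7.78, 11.7 and 12.8 CPM in NCD at 22 °C against 15.4, 25.2 and 24.4 CPM at 4 °C. On HFD it had 14.9, 20.0 and 10.5 CPM against 27.4, 33.3 and 27.4 CPM. No warm library reached a cold one on either diet. The rise was 2.01-fold on NCD (adjusted p = 0.0427) and 1.94-fold on HFD (adjusted p = 0.0381). Both were near the threshold, and the call remained in 3 of the 12 fits without 1 library on NCD and in 6 of 12 on HFD, with log2 changes of 0.83 to 1.21 and of 0.75 to 1.21. On NCD it was kept only without replicate 1 of NCD at 4 °C and without replicates 2 or 3 of HFD at 22 °C, and on HFD it was lost without replicate 2 of NCD at 22 °C, replicates 1 or 3 of HFD at 22 °C or any library of HFD at 4 °C. With the muscle score as a term, its adjusted p was 0.0559 on NCD and 0.0587 on HFD.

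Plvap, the protein of the diaphragms across endothelial pores, had 4.38, 4.23 and 5.03 CPM in HFD at 22 °C and 6.44, 6.38 and 8.76 CPM in HFD at 4 °C, without overlap. The rise of 1.58-fold (log2 0.66 ± 0.19 SE) had an adjusted p of 0.0498 and was lost in 11 of the 12 fits without 1 library, all but that without replicate 1 of NCD at 22 °C, where the log2 changes ran from 0.50 to 0.77. On NCD the libraries had 5.23, 7.73 and 7.25 CPM at 22 °C and 6.59, 8.24 and 7.01 CPM at 4 °C, which overlapped. None of the other pan-endothelial genes was called with cold on either diet alone. Kdr, the main VEGF receptor, had log2 changes of 0.49 and 0.48 on NCD and HFD, and Esam, a junction protein, of 0.54 and 0.47, with cold libraries above warm ones throughout and adjusted p between 0.098 and 0.127. Cdh5, Flt1, Vwf, Emcn and Egfl7 ranged from 0.10 to 0.41. Tek, Tie1, Erg, Sox7, Robo4 and Ramp2 lay between −0.14 and 0.18. Nos3, which makes nitric oxide in endothelium, had −0.25 and −0.12. Its exons overlap Atg9b on the other strand, which had 10 to 312 counts per library. Atg9b had log2 changes of −0.65 on NCD (adjusted p = 0.377) and −1.83 on HFD (adjusted p = 0.0178), and its part was not tested.

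**Figure D3:**
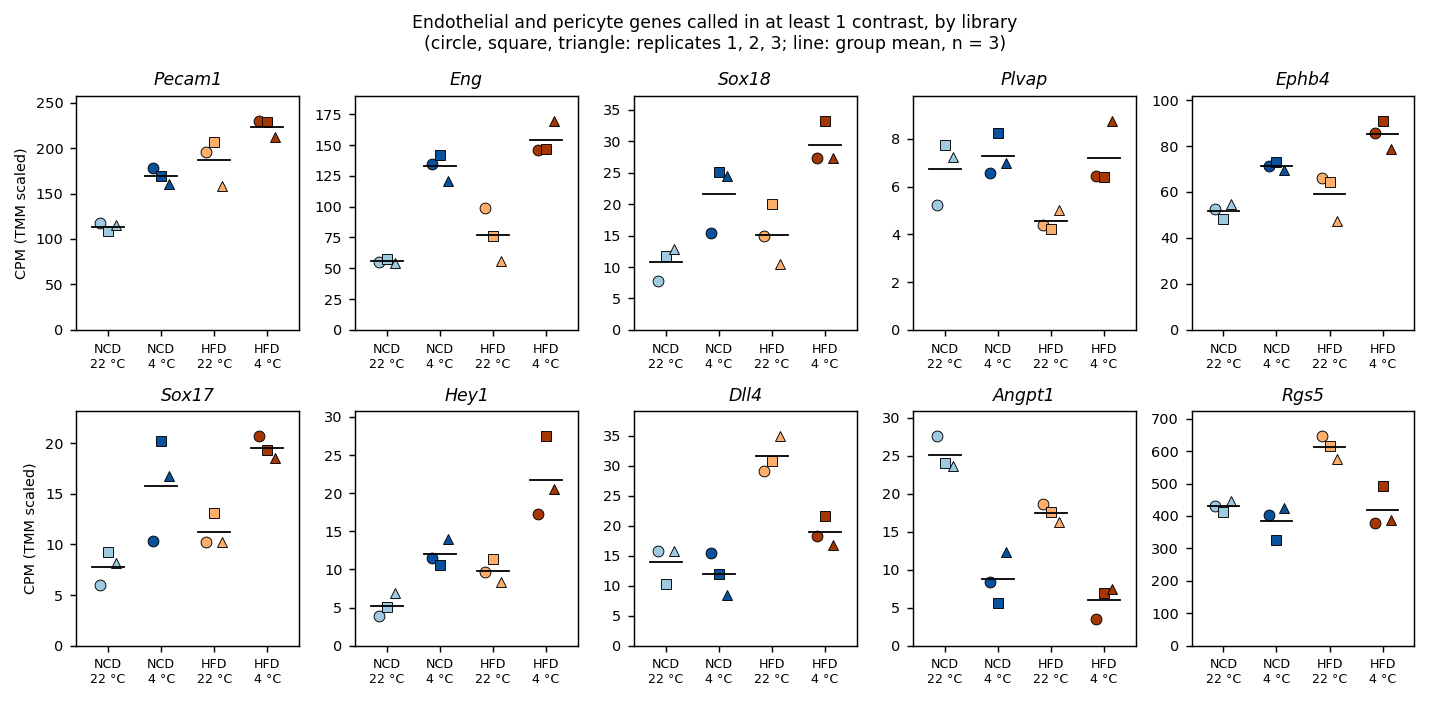
CPM in each of the 12 libraries for the 10 genes called in at least 1 of the 4 contrasts, with a line at the group mean. Eng, Sox17, Sox18 and Hey1 have all cold libraries above the warm ones within each diet, Angpt1 has all below, and Dll4 is highest in HFD at 22 °C, at 29.1 to 34.8 CPM.

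Among the arterial and Notch genes, Hey1 rose most with cold. This Notch target (chromosome 3, 8663359 to 8667256) had 3.86, 5.06 and 6.86 CPM in NCD at 22 °C and 11.5, 10.6 and 14.0 CPM at 4 °C. On HFD it had 9.60, 11.4 and 8.30 CPM and then 17.3, 27.4 and 20.5 CPM. The groups did not overlap within a diet, while the cold NCD libraries overlapped those of HFD at 22 °C. Hey1 rose 2.27-fold on NCD (log2 1.18 ± 0.24 SE, adjusted p = 0.0131) and 2.23-fold on HFD (log2 1.16 ± 0.23 SE, adjusted p = 0.00961). The call on NCD was lost only without replicate 2 of NCD at 22 °C, within a range of 1.01 to 1.44, and that on HFD was kept in all 12 fits.

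Sox17, the SOX factor of arteries (chromosome 1, 4490931 to 4497354), had 5.97, 9.24 and 8.18 CPM in NCD at 22 °C and 10.3, 20.2 and 16.8 CPM at 4 °C. On HFD it had 10.2, 13.1 and 10.3 CPM and then 20.7, 19.3 and 18.6 CPM, and again the groups did not overlap. It rose 2.02-fold on NCD (adjusted p = 0.0239) and 1.74-fold on HFD (adjusted p = 0.0455). On NCD the call was lost without replicates 1 or 3 of NCD at 22 °C or replicates 2 or 3 of NCD at 4 °C, with log2 changes of 0.80 to 1.25. On HFD it was lost in 9 of 12 fits, all but those without replicate 1 of NCD at 22 °C and without replicates 1 or 2 of NCD at 4 °C, with log2 changes of 0.74 to 0.93. Reads of the overlapping Gm37587 on the other strand were 1 to 15 per library.

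Dll4, the Notch ligand of arteries and tip cells (chromosome 2, 119325784 to 119335962), followed another order. It had 15.7, 10.3 and 15.8 CPM in NCD at 22 °C, 15.4, 11.9 and 8.52 CPM in NCD at 4 °C, 29.1, 30.7 and 34.8 CPM in HFD at 22 °C and 18.2, 21.7 and 16.8 CPM in HFD at 4 °C. The 3 libraries of HFD at 22 °C stood above the other 9. On HFD it fell 1.67-fold with cold (log2 −0.74 ± 0.22 SE, adjusted p = 0.0495), a call that the muscle score as a term ended (adjusted p = 0.0547). It was kept in 3 of 12 fits, those without replicate 2 of NCD at 22 °C and without replicates 1 or 3 of NCD at 4 °C, with log2 changes of −0.85 to −0.65 over the 12. The overlapping Gm14207 on the other strand had 2 to 19 counts per library. On NCD the cold change was −0.23 ± 0.22 SE (adjusted p = 0.612). The receptor genes Notch1 and Notch4 had log2 changes of 0.23 and 0.48 on NCD and of 0.14 and 0.56 on HFD, none called. Efnb2, the arterial ephrin ligand, had 0.30 and −0.09. The gap junction genes Gja4 and Gja5 had 0.20 and −0.15 on NCD and 0.22 and −0.25 on HFD. Gpr89, which overlaps Gja5 on the other strand, had 493 to 1528 counts per library.

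Of the venous genes, Ephb4, the receptor of ephrin B2, rose with cold on HFD, from 66.1, 64.2 and 47.4 CPM to 85.8, 91.0 and 78.8 CPM without overlap (1.44-fold, log2 0.53 ± 0.12 SE, adjusted p = 0.0204). This call was lost without replicate 3 of HFD at 22 °C or replicates 1 or 2 of HFD at 4 °C, and the log2 changes of all 12 fits ran from 0.39 to 0.64. On NCD it went from 52.8, 48.1 and 54.8 CPM to 71.4, 73.0 and 69.7 CPM, with a log2 change of 0.46 ± 0.12 SE. That change had an adjusted p of 0.0464 and stayed under the limit of fold. Aplnr, the apelin receptor, was low, with 1.31, 1.16 and 2.03 CPM in NCD at 22 °C and 0.344, 0.530 and 0.592 CPM at 4 °C, a log2 change of −1.60 ± 0.50 SE (adjusted p = 0.0759). On HFD its 1.87, 1.93 and 1.19 CPM at 22 °C overlapped the 0.540, 0.793 and 2.07 CPM at 4 °C.

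No tip-cell gene was called with cold. Apln, the ligand of APLNR, had 4.67, 4.71 and 6.47 CPM in NCD at 22 °C and 7.28, 8.18 and 7.62 CPM at 4 °C, with a log2 change of 0.53 ± 0.33 SE (adjusted p = 0.392). The libraries of HFD overlapped. Nrp1, a co-receptor of VEGF, was the most abundant of this class, at 249 to 443 CPM over all libraries, with log2 changes of 0.27 and 0.26. Angpt2, the antagonist of ANGPT1 on TEK, lay at 1.10 to 3.47 CPM with log2 changes of −0.20 and 0.07.

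The lymphatic genes were not called in any contrast either. Flt4, the receptor of VEGF-C, ranged from 10.8 to 25.1 CPM and Lyve1, a hyaluronan receptor, from 3.01 to 10.9 CPM. Prox1, the master factor of lymphatic identity that muscle fibres also express, varied more, with 0.995, 3.26 and 0.220 CPM in NCD at 22 °C, 0.401, 3.12 and 0.118 CPM in NCD at 4 °C, 0.837, 0.575 and 2.68 CPM in HFD at 22 °C and 0.540, 0.440 and 0.932 CPM in HFD at 4 °C. In 4 of 4 groups its highest library was the one with the most skeletal muscle transcripts. The same held in 1 of 4 groups for Flt4 and in 2 of 4 for Lyve1. With cold, Prox1 had a log2 change of −0.32 ± 1.11 SE on NCD and of −1.11 ± 1.10 SE on HFD, and with the muscle score as a term 0.27 and 0.48.

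**Figure D4:**
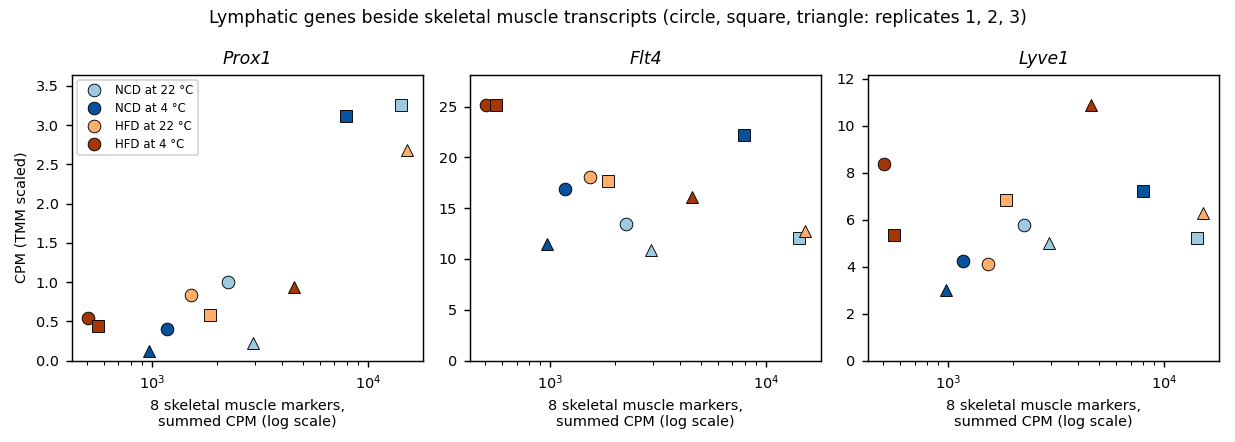
CPM of Prox1, Flt4 and Lyve1 in each library against the summed CPM of 8 skeletal muscle markers on a log axis. Colours give the group and shapes the replicate. The libraries with most muscle transcripts in their group hold 0.932 to 3.26 CPM of Prox1 and the others 0.118 to 0.995 CPM.

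Among the pericyte genes, Angpt1 fell with cold on both diets (chromosome 15, 42424723 to 42676977). It had 27.6, 24.0 and 23.6 CPM in NCD at 22 °C and 8.43, 5.59 and 12.3 CPM at 4 °C, and on HFD 18.6, 17.7 and 16.2 CPM at 22 °C and 3.56, 6.96 and 7.41 CPM at 4 °C. Each cold library lay below every warm one of either diet. The fall was 2.83-fold on NCD (log2 −1.50 ± 0.29 SE, adjusted p = 0.0119) and 2.91-fold on HFD (log2 −1.54 ± 0.29 SE, adjusted p = 0.00762), and both calls held without each of the 12 libraries and within the batch of replicates 1 and 2 alone. The overlapping Gm17473 on the other strand had 0 to 4 counts per library. Angpt1 is also made by cells other than pericytes, and Col1a1, Col3a1 and Lum of the fibroblast list fell with cold on NCD, by 1.71, 1.70 and 0.92 on the log2 scale. On HFD no fibroblast marker was called with cold, and the list summed to 505 to 721 CPM at 22 °C and to 333 to 691 CPM at 4 °C. The part of other cells in the values of Angpt1 was not tested. The receptor genes of the same system, Tek and Tie1, were not called (log2 0.04 for both on NCD, −0.14 and 0.15 on HFD).

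Rgs5, a regulator of G protein signalling that marks pericytes, had 431, 411 and 446 CPM in NCD at 22 °C and 402, 325 and 424 CPM at 4 °C, which overlapped. On HFD it went from 645, 615 and 574 CPM to 377, 494 and 389 CPM without overlap, a fall of 1.46-fold (log2 −0.54 ± 0.13 SE, adjusted p = 0.0243). This call was lost without replicates 1 or 2 of HFD at 22 °C or replicates 1 or 3 of HFD at 4 °C, with log2 changes of −0.67 to −0.44. With library totals in place of TMM it was −0.44 and was not called. Pdgfrb, the receptor that recruits pericytes, stayed within 60.0 to 86.4 CPM in all 12 libraries, with log2 changes of −0.21 and −0.01.

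In the diet contrasts most endothelial genes had small positive changes, of which few passed the test. At 22 °C, 2 of the 37 genes rose with HFD and 0 fell, against 0.992% and 1.09% of all genes. Dll4 rose 2.26-fold (log2 1.17 ± 0.22 SE, adjusted p = 0.0211) and Pecam1 rose 1.64-fold (log2 0.72 ± 0.11 SE, adjusted p = 0.00786), from the values given above, without overlap. This contrast shares the libraries of HFD at 22 °C with the fall of Dll4 in the cold on HFD. It shares those of NCD at 22 °C with the rise of Pecam1 in the cold on NCD, so these calls are not independent. The call of Pecam1 held in each of the 12 fits without 1 library. That of Dll4 was lost without any of the libraries of NCD at 22 °C and without replicates 2 or 3 of HFD at 22 °C, with log2 changes of 1.00 to 1.24. The 31 blood endothelial genes had a median log2 change of 0.49, beside 0.03 for all genes, and 27 of the 31 were positive. HFD libraries lay above all NCD ones for 15 of them and below for 1, where 13% and 12.9% of all genes did so. At an unadjusted p under 0.05 stood 20 of the 37 genes, against 18.1% of all genes. DESeq2 called 8 of the 37, against 4.92% of all genes. Markers of other cells differed at the same time: all 5 fibroblast markers (summed level 1037 to 1617 CPM on NCD and 505 to 721 CPM on HFD) and all 5 erythroid markers (median log2 −0.65) had negative changes with HFD at 22 °C, none called. Of the 5 brown adipocyte markers, 1 was called higher (log2 0.74) and 4 had negative changes. Of the 5 Schwann cell markers, 1 was called higher and 3 had negative changes. That list summed to 146 to 169 CPM on NCD and to 243 to 323 CPM on HFD. The part of all these markers in the endothelial values was not tested.

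In the cold, 0 of the 37 genes were called with HFD by edgeR's quasi-likelihood test, where 2.06% of all genes rose and 2.69% fell. At an unadjusted p under 0.05 there were 15 of 37, against 22.7% of all genes, and DESeq2 called 5, against 7.9% of all genes. The median of the 31 blood endothelial genes was 0.39, beside 0.02 for all genes, again with 27 positive. All 5 macrophage markers had positive changes in this contrast (median log2 0.72, Mrc1 called) and all 5 brown adipocyte markers negative ones (median log2 −0.30, none called), and their part was not tested. HFD libraries lay above all NCD ones for 15 of the 31 and below for 0, against 12.1% and 13.1% of all genes. Hey1 had the largest log2 change of the arterial and Notch genes, 0.85 ± 0.23 SE (adjusted p = 0.0549), and Tie1 had 0.49 ± 0.14 SE (adjusted p = 0.0621). The diet contrasts depend on the scaling: with library totals in place of TMM, the median of all genes itself moved to 0.22 at 22 °C and to 0.31 in the cold, the medians of the 31 genes to 0.68 and 0.68, and 10 and 17 of the 37 genes were called. Library totals called 4.73% and 14.6% of all genes in these contrasts, against 2.09% and 4.75% with TMM.

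Contrasts that average over the other factor were added after the data had been seen. For cold over both diets, 6 of the 37 genes rose and 2 fell, where 6.09% and 6.6% of all genes did. To the 5 genes called on both diets they added Esam (1.42-fold) and Notch4 (1.43-fold), which rose, and Aplnr, which fell 2.07-fold with an adjusted p of 0.0478. For HFD over both temperatures, 10 of 37 rose and 0 fell, where 4.24% and 3.55% of all genes did. The genes that rose were Dll4 (1.89-fold, adjusted p = 0.00403), Hey1 (1.82-fold, adjusted p = 0.0074), Notch4 (1.66-fold, adjusted p = 0.0123), Efnb2 (1.59-fold), Pecam1 (1.47-fold, adjusted p = 0.00128), Egfl7 (1.46-fold), Robo4 (1.44-fold), Ramp2 (1.44-fold), Kdr (1.43-fold) and Esam (1.43-fold). All are blood endothelial, with 4 from the arterial and Notch class, and no pericyte or lymphatic gene was among them. Of the 37 genes tested, however, 31 are blood endothelial, and only 3 are pericyte and 3 lymphatic genes, so this shows no difference between classes. Pecam1, Dll4, Hey1 and Notch4 kept this call without each of the 12 libraries. Egfl7 lost it without replicate 2 of NCD at 22 °C, replicate 3 of NCD at 4 °C or replicate 1 of HFD at 22 °C, and Ramp2 without replicate 1 of NCD at either temperature or replicate 2 of HFD at 22 °C. Efnb2 and Robo4 kept it in 7 of 12 fits, Kdr in 6 and Esam in 4. These 4 genes all lost it without replicate 2 of NCD at 22 °C or replicate 3 of NCD at 4 °C. The lowest log2 change of any of the 10 genes over the 12 fits was 0.42. Exons of Egfl7 overlap Agpat2 on the other strand, which had 20845 to 98664 counts per library. Agpat2 had a log2 change of −0.81 with HFD at 22 °C (adjusted p = 0.0871). Exons of Ramp2 overlap Vps25 on the same strand. The part of these overlaps in the values of Egfl7 and Ramp2 was not tested. For cold, Esam kept its call in 8 of 12 fits, Notch4 in 6 and Aplnr in 2, those without replicate 3 of HFD at either temperature. With 1 library left out, the count for HFD ranged from 5 to 13 and that for cold from 5 to 10. The shares of all genes ranged from 5.42% to 7.67% and from 10.6% to 12.2%.

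The interaction asked whether the effect of cold differed between the diets. By edgeR's quasi-likelihood test 0 of the 37 genes and 0% of all genes passed. At an unadjusted p under 0.05 there were 0 of the 37, against 6.52% of all genes. DESeq2 called 0 of the 37, against 0.347% of all genes. The smallest unadjusted p among the members belonged to Pecam1, followed by Plvap (log2 difference 0.55, unadjusted p = 0.0676) and Rgs5 (log2 difference −0.38, unadjusted p = 0.0678). A call on 1 diet and none on the other, as for Dll4, Plvap, Rgs5 and Ephb4, was therefore not shown to be a difference between the diets.

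Further genes of the same vessels were taken from 6 lists with 62 tested genes. With cold on NCD, 7 of the 62 rose and 1 fell, and on HFD 6 rose and 0 fell, beside the shares of all genes given above. Of the growth factor list, Cxcl12, a chemokine of perivascular and endothelial cells, rose on both diets, from 80.9 ± 5.9 to 183.9 ± 27.1 CPM (SD, n = 3) on NCD and from 124 ± 31 to 234 ± 46 CPM (SD, n = 3) on HFD (adjusted p = 0.00517 and 0.0109). Pdgfb, which endothelial cells release for pericytes, rose by 0.78 and 0.62 on the log2 scale (adjusted p = 0.0116 and 0.0227). Vegfa had 0.51 and 0.21 and was not called (adjusted p = 0.223 and 0.579). The growth factor list did not rise as a whole. Its median log2 change was −0.19 on NCD, with 7 of 11 genes negative, and −0.13 on HFD, with 6 of 11 negative. Of other endothelial genes, the sphingosine receptor gene S1pr1 rose by 0.76 and 0.55, and Mcam fell by 0.82 on NCD. Of the arterial, venous and tip-cell list, Unc5b, a netrin receptor of arteries and tip cells, rose by 0.92 and 1.34, and Heyl, a Notch target, by 1.21 on HFD. The median of that list was −0.26 on NCD, with 7 of 11 genes negative, and −0.05 on HFD, with 6 of 11 negative. Of capillary lipid handling, the fatty acid transporter Cd36 and the fatty acid binding protein Fabp4, both also of adipocytes, rose by 0.62 and 0.61 on NCD. The smooth muscle gene Cnn1 rose by 1.18 on HFD, and none of the 4 other lymphatic genes was called on either diet. All 4 had negative changes on NCD (median log2 −0.69), and 3 of the 4 had positive ones on HFD (median log2 0.17).

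With HFD at 22 °C, 2 of these 62 genes rose and 2 fell, and in the cold 4 rose and 2 fell. Over all genes, 0.992% rose and 1.09% fell at 22 °C, and 2.06% rose and 2.69% fell in the cold. Adm, the gene of adrenomedullin, a dilator peptide of vessels, rose from 0.941 ± 0.332 to 3.21 ± 0.35 CPM (SD, n = 3) at 22 °C and from 0.843 ± 0.250 to 3.59 ± 1.22 CPM (SD, n = 3) in the cold (adjusted p = 0.0283 and 0.00906). Ramp2, the partner of its receptor, stood at 15.6, 18.5 and 19.6 CPM in NCD and at 25.6, 31.7 and 22.3 CPM in HFD at 22 °C, and at 14.4, 19.4 and 19.4 CPM against 25.4, 25.5 and 24.1 CPM in the cold. The HFD libraries of Ramp2 lay above those of NCD at each temperature, with log2 changes of 0.56 and 0.49 that were not called (adjusted p = 0.0931 and 0.0917). Plxnd1, a semaphorin receptor of endothelium, rose by 1.00 and 0.86 on the log2 scale. Unc5b rose by 0.86 and Cd34 by 0.56 in the cold. Fabp5 fell by 1.28 at 22 °C and 1.07 in the cold, Fabp4 by 0.71 in the cold, and Fgf2 by 1.06 at 22 °C. Of the 18 other endothelial genes tested, 17 had a positive change with HFD at 22 °C and 17 in the cold, with medians of 0.47 and 0.46.

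Levels were compared between genes per kilobase of merged exons. In NCD at 22 °C, Rgs5 stood highest at 94.5 ± 3.8 CPM per kb (SD, n = 3), followed by Cdh5, the adherens junction cadherin, at 37.8 ± 5.3 and Nrp1 at 30.2 ± 4.2. Egfl7 (22.1 ± 3.3), Kdr (21.5 ± 5.4) and Pecam1 (18.2 ± 0.8) came next, and neighbours among these 3 differed by less than the larger SD of each pair. Eng held 13.8 ± 0.4 CPM per kb there and 38.1 ± 3.3 CPM per kb in HFD at 4 °C, a level near the 40.8 ± 4.9 of Nrp1 and the 35.9 ± 1.5 of Pecam1. The lowest of the tested genes were Angpt2 at 0.428 ± 0.133, Aplnr at 0.406 ± 0.126 and Prox1 at 0.178 ± 0.188 CPM per kb. Esm1, a tip-cell marker, reached 0 to 0.294 CPM in any library, and its counts could not show a change.

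**Figure D5:**
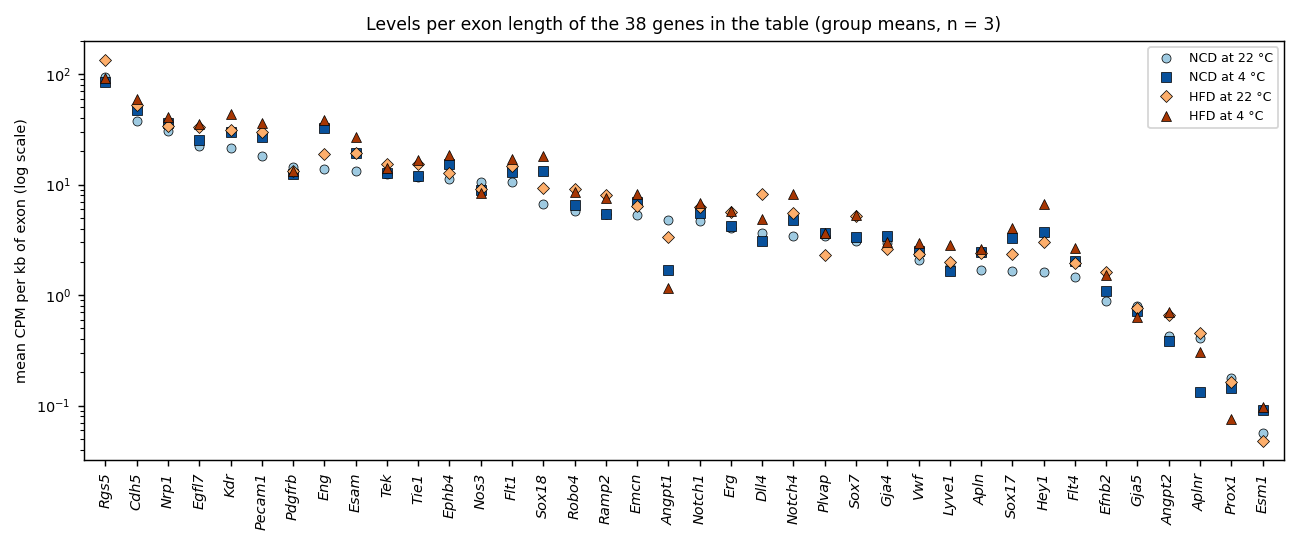
Group means of CPM per kilobase of exon on a log axis for the 38 genes with a row, ordered by the level in NCD at 22 °C. Rgs5 is highest in all 4 groups, and Angpt1 drops from 4.82 CPM per kb in NCD at 22 °C to 1.15 in HFD at 4 °C.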

How the data were processed

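Total RNA was depleted of rRNA and sequenced in pairs from 12 libraries, 3 per group. The authors used cutadapt to trim and salmon to quantify the reads, with transcripts of GENCODE M22 and RNAcentral 5 (GRCm38). They deposited unnormalized estimated counts of genes in whole numbers. Whether strand was used is not given in the sources used here. Rows without a symbol made up 45.6% of the table. Per the labels, replicate 3 carries another batch number than the other replicates in every group. Counts were filtered with filterByExpr (minimum count 10) and fitted as 4 group means in edgeR 4.0.16 (TMM, quasi-likelihood, R 4.3.3), with DESeq2 1.42.0 as an alternative. The interaction threshold was an adjusted p of 0.05.

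The members and lists were chosen with earlier results of these data known. All members are named, and of each of the 6 lists of further vessel genes at most 2 called genes per direction with the largest change in each contrast. Vegfa, which was not called, is named besides. So are single markers of other cells and genes that overlap a member. Alternatives were DESeq2, its size factors, other filters, batch or replicate number as a term, 1 batch, the 6 libraries compared, a muscle score, no minimum fold and each library left out. Library totals and the averaged contrasts were added after the data had been seen. Same-numbered libraries deviated together between temperatures (correlations of 0.219 to 0.456 on NCD and 0.155 to 0.386 on HFD), so the number was also used as a block within diet. This pairing rests on the correlations alone. Between diets the correlations ran from −0.211 to 0.365. Coordinates and exon lengths came from GENCODE M21 on GRCm38. The tests were also run on simulated counts with known changes.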

Additional observations from a re-analysis of the deposited data

How the results depend on the processing

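Counts of called genes among the 37 depended on the test and the libraries more than on direction, and no called gene reversed under any alternative run. The 4-group count of 3 was 8 without a filter on counts (2.89% of all genes), 13 with DESeq2 (15.7%) and 18 at an adjusted p of 0.05 (24.3%). It was 0 with the replicate block (1.61%), within the batch of replicates 1 and 2 (0%) or with the muscle score (2.39%). Without 1 library it was 0 to 2 (0.608% to 1.49%). Within that batch alone, cold gave 3 on NCD (all libraries: 6) and 2 on HFD (all libraries: 9). The shares of all genes were 2.12% and 2.51% there, against 6.27% and 9.58% with all libraries. In the same batch HFD at 22 °C gave 1 (0.253% of all genes) and HFD over both temperatures 6 (3.25%). With all libraries these shares were 2.09% and 7.8%. With only the 6 libraries compared, cold on HFD gave 5 (5.28% of all genes). For HFD at 22 °C, called for 2, there were 4 with the replicate block (2.76% of all genes), 8 with DESeq2 (4.92%) and 10 with library totals (4.73%). For HFD in the cold, called for 0, there were 2 without a filter (2.09% of all genes) and 1 with a mean of at least 10 counts (5.04%). There was 1 with the replicate block (5.11%), and there were 5 with DESeq2 (7.9%) and 17 with library totals (14.6%). HFD over both temperatures, called for 10, gave 22 with library totals, which called 17.7% of all genes against 7.8% with TMM. Cold over both diets, called for 8, gave 13 without a minimum fold, where 21.1% of all genes were called against 12.7% with it. Without 1 library, the counts were 4 to 6 for cold on NCD, 3 to 8 for cold on HFD, 1 to 3 for HFD at 22 °C, 0 to 1 for HFD in the cold, 5 to 10 for cold over both diets, 5 to 13 for HFD over both temperatures and 0 for the interaction. Of all genes, these fits called 2.83% to 6.51% for cold on NCD and 5.85% to 9.61% for cold on HFD. They called 0.674% to 2.12% for HFD at 22 °C and 1.38% to 5.72% for HFD in the cold. The averaged contrasts gave 10.6% to 12.2% for cold and 5.42% to 7.67% for HFD, and the interaction 0% to 0.127%. The block within diet kept all 15 calls of single genes made with cold in the separate diets. The causes were not tested. Depth limits the genes with the fewest counts, Esm1, Prox1 and Aplnr.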
